A study of Mus musculus with 14 samples.

Results

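Undifferentiated mouse neural stem cell cultures from a drug experiment were compared here with undifferentiated reference cultures of the same series. The drug-experiment side holds 3 libraries at passage 8, one each labelled NC (a control whose letters the labels do not spell out), naloxone and DAMGO, and was taken from the sample titles together with the reference side of 2 libraries, one at passage 8 and one at passage 13. These 5 libraries are 5 of the 14 in the series, and the other 9 are the same 3 treatments at days 2, 4 and 8 of differentiation. All cells are NSC of the OG2 strain, whose mice carry a green fluorescent reporter driven by the Pou5f1 promoter. The series' design text names the reference cultures as its negative control, and no drug is named for them. Naloxone blocks opioid receptors, and DAMGO is a peptide that activates the mu opioid receptor. The labels give no drug dose, exposure time, medium, oxygen level, cell density, tissue of origin, animal or date for any library.

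Neural stem cells kept in culture with growth factors divide and keep the capacity to form neurons and glia. Hypoxia-inducible factors (HIF) are pairs of an alpha subunit and ARNT. Prolyl hydroxylases of the Egln family mark the alpha subunit for removal when oxygen is plentiful, and the hydroxylase genes Egln1 and Egln3 are themselves HIF targets. The stable factor binds DNA at sites with a core such as ACGTG. It activates genes of glycolysis, blood vessel growth, collagen modification and removal of mitochondria. In dividing cells a separate programme, driven in part by E2F factors, supplies the proteins that copy DNA, and another supplies nucleotides and ribosomes.

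The 5 libraries held 4913497 to 7378645 expected counts, and a gene with 3 counts would stand at 0.408 to 0.61 CPM (counts divided by the TMM-scaled library total). Each condition has 1 library, so the spread within a side holds drug and passage effects as well as library noise, and p-values measure only the spread between these libraries. Membership of the drug experiment cannot be told apart from the culture, day or batch in which those libraries were made. The stem cell identity of both sides was checked on marker genes. The intermediate filament gene Nes stood at 1692 and 1952 CPM in the passage 8 and passage 13 references and at 1748 to 1903 CPM in the drug-experiment libraries. The proliferation gene Mki67 stood at 1439 and 1330 CPM in the references and at 1278 to 1367 CPM in the others. Neither gene passed the test (edgeR quasi-likelihood, adjusted p = 0.954 for Nes and 0.446 for Mki67), and Gfap, the astrocyte filament gene, was at 4.07 CPM or less in all 5. Of 15 microglial markers 13 were under 1 CPM in every library, and their summed level was 3.54 and 5.07 CPM in the references against 2.95 to 4.68 CPM. The mesenchymal markers Col1a1, Col1a2 and Col3a1 had 26, 43 and 40 counts in the passage 8 reference and 0 to 7 in each other library. Their counts were too low for the test, and the source of these reads was not tested. Pdgfrb, another mesenchymal marker, had 0 to 4 counts in all 5. Xist, the RNA of the inactive X, stood at 1785 to 2168 CPM beside 12.3 to 43.1 CPM for the Y-linked genes Uty, Kdm5d, Ddx3y and Eif2s3y in all 5 libraries, and the labels give no sex.

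Across the genome the sides differed by many small changes and a few large ones. Of 12308 genes tested, 424 were higher and 359 lower in the drug-experiment cultures at an adjusted p under 0.05 (edgeR quasi-likelihood test with Benjamini-Hochberg adjustment), which is 6.36% of genes, 3.44% higher and 2.92% lower. The median change was 1.39-fold among the genes that were higher and 1.27-fold among those that were lower. A change of at least 2-fold was seen for 58 genes that were higher and 17 that were lower. The sides overlapped for only 1 of the 783 genes called, so a lack of overlap adds little to a call. Of the 15 largest rises among genes averaging at least 5 CPM, 10 belong to the lists of glycolysis or HIF targets. After a trend on GC content and gene length was removed within libraries the split was 438 higher and 584 lower. In a fit that takes the spread from all 14 libraries the counts were 59 and 22, and without the passage 13 reference they were 979 and 1054.

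**Figure D1:**
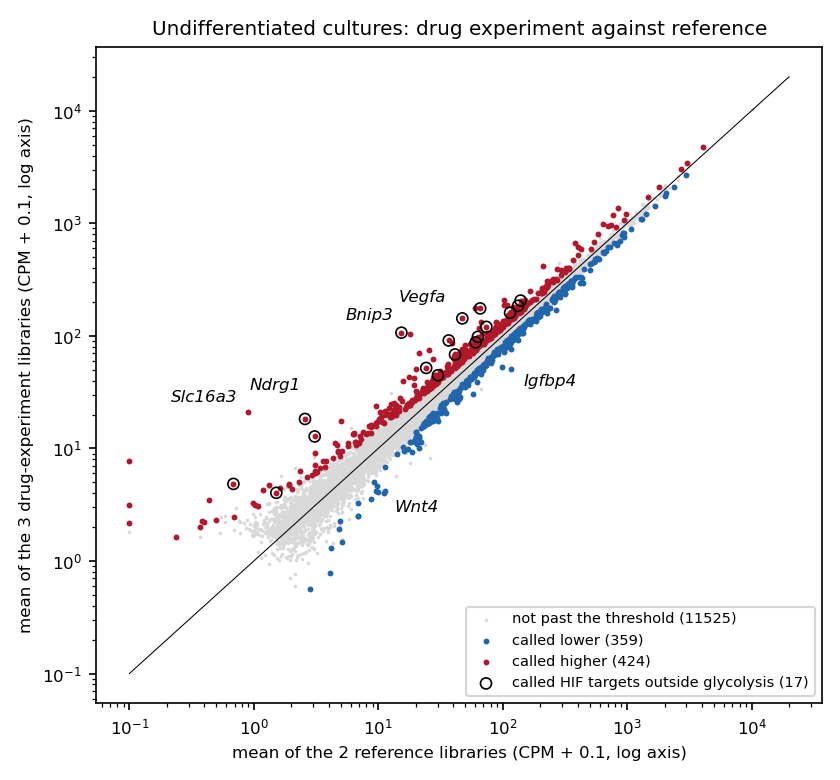
Mean CPM + 0.1 of the 3 drug-experiment libraries (vertical, log axis) against that of the 2 reference libraries (horizontal, log axis) for 12308 genes, with the line of equality. The 424 genes called higher, with a median fold of 1.39, lie above the line and the 359 called lower, with a median of 1.27, below it, and the 17 called HIF targets outside glycolysis are circled.

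The libraries themselves lay in an order that passage number does not give. On the first principal component, which held 40.8% of the variance, the passage 8 reference was at -24.05 and the passage 13 reference at -15.05, and the 3 drug-experiment libraries, all at passage 8, lay between 11.71 and 15.53. The root mean square log2 difference between genes of 2 libraries was 0.301 to 0.319 among the drug-experiment libraries, 0.353 between the references and 0.363 to 0.409 across the sides. Between the passage 8 reference and NC, which share their passage and have no named drug, it was 0.409, and NC was the shallowest of the 5 libraries. Distance was also measured against counting noise, as a chi-square per gene with at least 50 counts in both libraries. The passage 8 reference was 6.59 from NC, 6.67 from naloxone and 7.47 from DAMGO, and 4.12 from the passage 13 reference. On this measure the passage 13 reference was 4.95 from NC, 4.565 from naloxone and 4.885 from DAMGO, against its 4.12 from the passage 8 reference. Among the drug-experiment libraries the values were 1.436 (NC and naloxone), 1.93 (NC and DAMGO) and 1.46 (naloxone and DAMGO). The measure grows with depth, and the references are the 2 deepest of the 5 libraries. The passage 13 reference was the nearer of the references to the drug-experiment mean for 267 of the 424 genes that were higher and 265 of the 359 that were lower. The correlation of a gene's deviation with its GC content ran from -0.115 in NC to 0.11 in DAMGO across 12240 genes, which are not independent replicates.

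HIF targets outside glycolysis were higher together. Of the 31 genes listed, 24 were measured (one further name is absent from the files, and Car9, Car12, Angptl4, Lox and Tmem45a were among those with too few counts), 17 were higher and 0 lower, beside 3.44% of all genes called higher. Their median log2 difference was 0.60, and that of all genes tested was 0.00. The 16 higher of 23 genes of glycolysis and glucose or lactate transport had a median over the list of 0.61. In the fit over 14 libraries 9 of the 24 remained past the threshold, and without any single library 14 to 17 did.

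Bnip3, a mitochondrial protein that tags mitochondria for removal, stood at 14.7 CPM in the passage 8 reference and 15.8 in the passage 13 reference. It stood at 87.4 CPM in NC, 111 in naloxone and 122 in DAMGO. The sides did not overlap, as for nearly every gene called. The log2 difference was 2.81 ± 0.14 (SE, adjusted p = 5.7e-08 by edgeR's quasi-likelihood test). Its relative Bnip3l went from 123 and 156 CPM in the references to 200 to 213 CPM, a log2 difference of 0.56 ± 0.08. Pdk1 is the kinase that turns off pyruvate dehydrogenase and so limits the entry of pyruvate into mitochondria. It is counted with the genes of glucose use and not in the list of HIF targets outside glycolysis. Pdk1 stood at 14.7 and 21.1 CPM in the references and at 106, 95.2 and 112 CPM in NC, naloxone and DAMGO. Bnip3 and Pdk1 both act on mitochondria, and for both the lowest drug-experiment library stood far above the higher reference.

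The secreted and matrix-modifying members followed. Vegfa, the growth factor of blood vessels, stood at 43.5 and 51.0 CPM in the references and at 126, 135 and 167 CPM in NC, naloxone and DAMGO, a log2 difference of 1.59 ± 0.11. Loxl2, a lysyl oxidase that crosslinks collagen, went from 3.93 and 2.04 CPM to 11.4, 12.8 and 13.8 CPM. P4ha2, a subunit of the collagen prolyl hydroxylase, stood near the limit of counting in the references at 0.491 and 0.68 CPM and at 5.08, 2.95 and 6.19 CPM in NC, naloxone and DAMGO. For these 3 genes every drug-experiment library lay above both references, as for nearly every gene called higher. P4ha1 and Plod2, which hydroxylate collagen prolines and lysines, were higher by 0.63 ± 0.08 and 0.70 ± 0.08 on the log2 scale. Plod1, another lysyl hydroxylase, differed by 0.24 ± 0.10 with an adjusted p of 0.15 in the edgeR test.

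Ero1l, an oxidase that forms disulfide bonds in the endoplasmic reticulum, stood at 64.4 and 67.2 CPM in the references and at 154, 179 and 193 CPM in NC, naloxone and DAMGO. Ndrg1, a stress-responsive gene of cell differentiation, went from 2.78 and 2.18 CPM to 15.5, 17.7 and 21.4 CPM, a log2 difference of 2.88 ± 0.24. Fam162a and Higd1a, both mitochondrial proteins of the hypoxic response, were higher by 1.31 ± 0.11 and 0.73 ± 0.10. Ankrd37 was higher by 1.48 ± 0.37, Mxi1, an antagonist of Myc, by 0.56 ± 0.11, and Ddit4, an inhibitor of the growth kinase mTORC1, by 0.52 ± 0.13. Not every HIF target moved. Adm, which encodes adrenomedullin, stood at 19.95 and 19.72 CPM in the references and at 19.97 to 21.96 CPM in the others. Stc1 stood at 11.3 and 11.4 CPM against 10.9 to 11.6 CPM, and Bhlhe40, Hilpda, Nrn1 and Stc2 also missed the threshold with log2 differences of 0.20 to 0.53. DAMGO was the highest of the drug-experiment libraries for Bnip3, Vegfa, Ero1l and Ndrg1, and no replicate of that library exists.

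**Figure D2:**
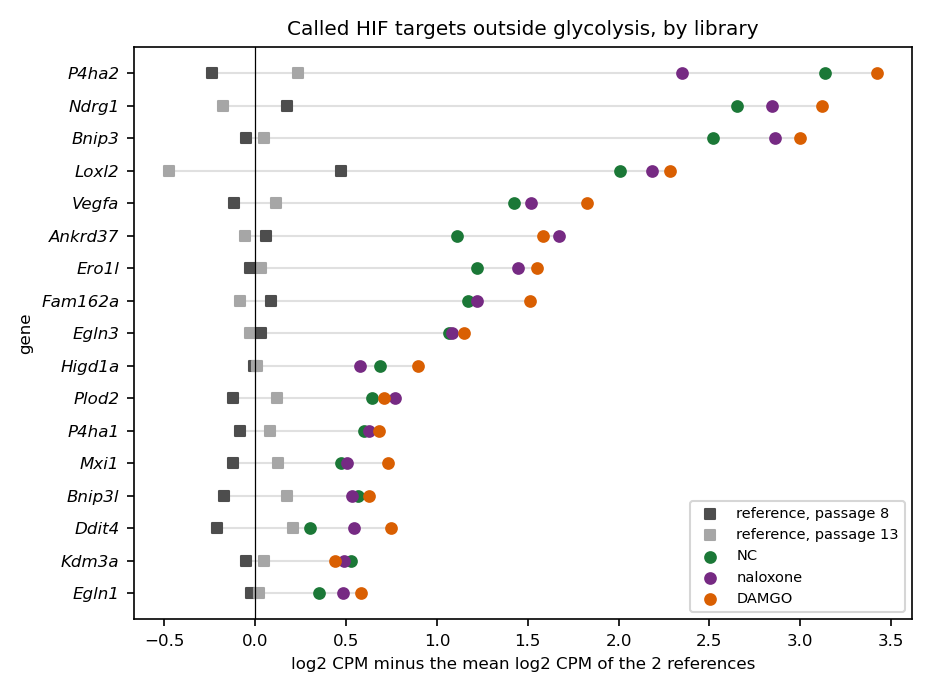
Log2 CPM minus the mean log2 CPM of the 2 references (horizontal) for the 17 HIF targets outside glycolysis that were called, one row each, with squares for references and circles for drug-experiment libraries. In every row the 3 circles lie to the right of both squares, from P4ha2, Ndrg1 and Bnip3 at the top to Egln1 at the bottom. Nearly every gene called higher has this order.

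The genes of the oxygen sensor were measured beside the targets. Hif1a, the alpha subunit, stood at 219 and 242 CPM in the references and at 233 to 248 CPM in the drug-experiment libraries, and its partner Arnt at 61.2 and 61.6 against 58.9 to 62.6 CPM. Neither passed the test, and the mRNA says nothing of the amount of HIF protein. Egln3 stood at 24.7 and 23.7 CPM in the references and at 50.6, 51.2 and 53.6 CPM in NC, naloxone and DAMGO. Egln1 went from 131 and 135 CPM to 170, 186 and 199 CPM. These were the 2 of 12 measured genes of the HIF machinery that passed, beside 3.44% of all genes called higher. The list was drawn up after calls had been seen, and both genes are already counted among the 17 called HIF targets outside glycolysis. Vhl, the ligase subunit that removes HIF, differed by 0.24 ± 0.08 with an adjusted p of 0.103 (edgeR).

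Promoter sequence was examined because these genes moved together. RefSeq windows from 250 bases before to 50 after a gene's start (GRCm38.p6, 32851 windows) were searched on both strands for ACGTG, a string that also lies inside the E-box CACGTG. It occurred in 19.6% of all windows and in 25.4% of windows of tested genes. Of the 17 windows found for 12 of the called HIF targets outside glycolysis, 70.6% held it. Of the 22 windows found for all measured genes of that list, called or not, 59.1% held it. The list was chosen as HIF targets, so these shares describe the list and are no test of the rise. Of windows of all genes called higher 30% held ACGTG. A match is a description of letters and not of binding. The stretches below, each upstream of the RefSeq start and outside GENCODE exons, are shown because they carry ACGTG in members with large or well-measured differences. Capitals mark this form of the core, which on the other strand reads CACGT, and other forms were neither searched nor marked.
Bnip3, chr7:138909525-138909624, strand minus: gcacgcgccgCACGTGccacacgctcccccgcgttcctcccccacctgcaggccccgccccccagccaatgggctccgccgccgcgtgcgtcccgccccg
P4ha2, chr11:54100824-54100923, strand plus: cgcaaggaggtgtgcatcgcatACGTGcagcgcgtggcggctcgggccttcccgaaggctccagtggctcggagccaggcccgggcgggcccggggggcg
Egln3, chr12:54204014-54204113, strand minus: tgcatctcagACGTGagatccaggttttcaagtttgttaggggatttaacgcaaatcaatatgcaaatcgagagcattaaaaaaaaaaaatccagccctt
P4ha1, chr10:59323196-59323295, strand plus: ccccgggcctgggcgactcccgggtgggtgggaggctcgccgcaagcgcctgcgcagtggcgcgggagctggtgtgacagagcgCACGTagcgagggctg
Mxi1, chr19:53329313-53329412, strand plus: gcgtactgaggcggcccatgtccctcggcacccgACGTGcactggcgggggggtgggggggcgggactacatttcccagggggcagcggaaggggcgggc
In the Bnip3 stretch the capitals form the palindrome CACGTG, which holds the core on both strands.

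In a list added after calls were seen, 5 of 19 measured glycogen genes were higher and 0 lower, beside 3.44% of all genes called higher, with a median log2 difference of 0.16. Pgm1, which links glucose 6-phosphate to glycogen synthesis, stood at 66.1 and 62.0 CPM in the references and at 116, 112 and 127 CPM in NC, naloxone and DAMGO. Gys1, the glycogen synthase, went from 41.9 and 47.6 CPM to 70.6, 72.0 and 70.2 CPM, and Gbe1, the branching enzyme, from 15.2 and 15.4 CPM to 21.96, 26.19 and 30.045 CPM. Epm2a, a glycogen phosphatase, was higher by 0.90 ± 0.20.

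Of 23 measured genes associated with FOXO factors and with slowed growth, a list also added after calls were seen, 8 were higher and 0 lower, beside 3.44% of all genes called higher. The median log2 difference of the list was 0.34. Txnip, an inhibitor of glucose uptake and of thioredoxin, stood at 6.71 and 10.1 CPM in the references and at 15.05, 15.96 and 16.08 CPM in the drug-experiment libraries. Ccng2, an atypical cyclin of arrested cells, went from 33.2 and 47.9 CPM to 69.7, 65.1 and 62.9 CPM. Fbxo32, Btg1, Mxd1, Foxo3, Foxo4 and Mxi1 made up the rest, with log2 differences of 0.34 to 0.75. The list median lay at -0.13 in the passage 8 reference and 0.13 in the passage 13 reference relative to their mean, and at 0.24 to 0.36 in the drug-experiment libraries. In the fit over 14 libraries 0 of the 23 passed, and without the passage 8 reference 4 did.

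Among 3 lists of other regulators, 4 or 5 members each were higher, beside 3.44% of all genes. Of 20 measured circadian clock genes (added list) 4 were higher and 0 lower, led by Per1, a repressor of the clock, at 13.9 and 24.6 CPM in the references and 40.5, 42.3 and 43.3 CPM in NC, naloxone and DAMGO. Per2, Cry2 and Rora were higher by 0.46 to 0.63 on the log2 scale, and on TPM Per2 was lower instead, at -0.27. Of 23 measured genes of the JmjC family, oxygen-using demethylases and hydroxylases (added list), 5 were higher and 0 lower, namely Kdm7a, Kdm4b, Kdm3a, Kdm6a and Jmjd6, by 0.30 to 0.69. Of 25 measured immediate early genes 5 were higher and 0 lower, with a median of 0.39. Egr1 stood at 328 and 216 CPM in the references and at 370, 419 and 384 CPM in the others, and Arc went from 30.6 and 27.3 CPM to 42.5, 44.2 and 40.3 CPM. In the fit over 14 libraries 1 clock gene, 1 JmjC gene and 0 immediate early genes passed.

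Of 32 measured genes that copy DNA or act in S phase, 12 were lower and 0 higher, beside 2.92% of all genes called lower, and 31 of the 32 differences were negative with a median of -0.23. Ccne1, the cyclin that opens S phase, stood at 51.5 and 38.6 CPM in the passage 8 and passage 13 references and at 26.4, 29.8 and 29.2 CPM in NC, naloxone and DAMGO, a log2 difference of -0.65 ± 0.12. E2f1, the transcription factor of this programme, went from 45.0 and 41.6 CPM to 25.4, 33.0 and 33.2 CPM. Pola1, the catalytic subunit of the polymerase that primes DNA, stood at 149 and 136 CPM against 111, 105 and 103 CPM. The sides did not overlap for any of these 3 genes, as for nearly every gene called.

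The helicase subunit genes Mcm2, Mcm3, Mcm5 and Mcm6 were lower, with log2 differences of -0.36 to -0.23, while Mcm4 and Mcm7, of the same ring, differed by -0.18 ± 0.07 and -0.09 ± 0.06 and did not pass (edgeR, adjusted p = 0.147 and 0.369). Cdt1, Rfc5, Pcna, Rrm2 and Tyms completed the 12. For each of the 12 the passage 13 reference was nearer to the drug-experiment libraries than the passage 8 reference was. Without the passage 8 reference 5 of the 32 were lower with a median of -0.17, without the passage 13 reference 21 were, and in the fit over 14 libraries 0 were. Of 30 genes of mitosis 1 was lower (Plk1, a mitotic kinase), a share near the 2.92% of all genes, with a median of -0.08. Of 12 cyclin D and cell cycle inhibitor genes 0 passed, and Ccnd1 stood at 2619 and 2499 CPM in the references and 2384 to 2441 CPM in the others.

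Windows of the measured S phase genes held an E2F site, written here as TTCCCGC or TTGGCGC on either strand, in 60.7% of 28 windows, beside 6.81% of all windows and 12.5% of windows of tested genes. Among the 12 windows of the called members the share was 41.7%, below that of the measured list. The genes were chosen as a programme driven in part by E2F factors. These shares therefore describe the list and are no test of the fall. The following stretches are shown because they carry more than 1 such site in called members, with the sites in capitals.
Pola1, chrX:93632235-93632334, strand minus: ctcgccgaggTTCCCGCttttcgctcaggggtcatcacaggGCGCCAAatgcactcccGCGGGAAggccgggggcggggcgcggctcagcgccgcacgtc
Mcm5, chr8:75109335-75109434, strand plus: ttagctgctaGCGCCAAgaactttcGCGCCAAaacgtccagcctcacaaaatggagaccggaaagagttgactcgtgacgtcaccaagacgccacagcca
Mcm6, chr1:128359725-128359824, strand minus: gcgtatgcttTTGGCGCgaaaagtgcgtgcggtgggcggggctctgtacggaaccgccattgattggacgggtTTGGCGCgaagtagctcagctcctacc
The Pola1 stretch holds 3 sites and the Mcm5 and Mcm6 stretches 2 each.

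Of 28 measured genes of purine and pyrimidine synthesis (added list), 8 were lower and 0 higher, beside 2.92% of all genes called lower, with a median of -0.22. Ppat, the first committed enzyme of purine synthesis, stood at 109 and 92.2 CPM in the references and at 76.7, 78.6 and 72.5 CPM in NC, naloxone and DAMGO, and Dut, which keeps uracil out of DNA, at 119 and 104 against 81.7, 82.6 and 86.1 CPM. Of 30 measured genes of Myc and ribosome biogenesis 8 were lower and 0 higher, beside the same 2.92%, with a median of -0.21. Fbl, the methyltransferase of ribosomal RNA, went from 200 and 185 CPM to 145, 150 and 148 CPM. Nucleolin, encoded by Ncl, stood at 1439 and 1196 CPM against 1137, 1074 and 1089 CPM. Myc itself stood at 160 and 183 CPM in the references and 172 to 185 CPM in the others and did not pass (edgeR, adjusted p = 0.725).

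Of 41 measured importins, exportins and nucleoporins (added list), which carry cargo through the nuclear envelope, 11 were lower and 0 higher, beside 2.92% of all genes called lower, with a median of -0.17. Others were flat, such as Xpo1, the main exportin, at a log2 difference of 0.02. Kpnb1, the main importin beta, stood at 906 and 752 CPM in the references and at 664, 666 and 664 CPM in the drug-experiment libraries, and Nup210, a pore membrane protein, at 312 and 327 CPM against 225, 239 and 238 CPM. For Nup210 the passage 13 reference was the higher of the references, unlike for Kpnb1. Without the passage 8 reference the counts were 3 for ribosome biogenesis, 2 for nucleotide synthesis and 6 for nuclear transport, with medians of -0.09, -0.13 and -0.09. In the fit over 14 libraries they were 0, 0 and 1.

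**Figure D3:**
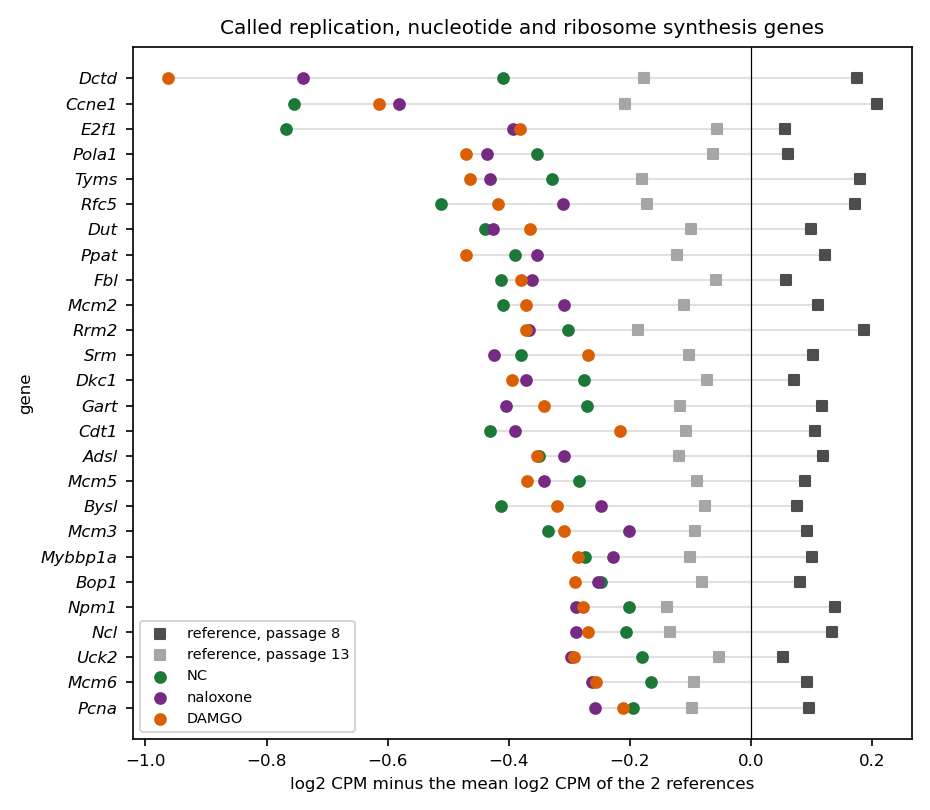
Log2 CPM minus the mean log2 CPM of the 2 references (horizontal) for the called genes of DNA replication, nucleotide synthesis and ribosome biogenesis, with squares for references and circles for drug-experiment libraries. All circles lie to the left of both squares, as for nearly every gene called lower. In each row the passage 13 reference lies between the passage 8 reference and the circles.

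Few ribosomal protein genes and genes of respiration passed, and larger shares of the chaperone and ATF4 lists did, beside 3.44% of all genes called higher and 2.92% lower. Of 27 measured ribosomal protein genes 1 was lower, Rps2, whose reads can be shared with near-identical copies, and the median was -0.04. Of 30 nuclear genes of oxidative phosphorylation 0 passed in either direction and 26 differences were negative, with a median of -0.07. Of 19 genes of the citric acid cycle and mitochondrial biogenesis 0 passed, with a median of -0.11. Of 24 genes of endoplasmic reticulum chaperones 3 were lower (Calr, Manf and Pdia3), and of 18 cytosolic chaperone genes 3 were lower (Hspa4, Hsph1 and Hsp90ab1), with log2 differences of -0.31 to -0.18. The ATF4 targets, of amino acid supply and stress, had 4 of 38 higher and 0 lower around a median of -0.01. The 4 were Ddit4, Trib3, Vldlr and Slc7a3. Slc7a3, an arginine transporter, stood at 2.29 and 2.18 CPM in the references and 7.73, 6.42 and 4.42 CPM in the others.

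**Figure D4:**
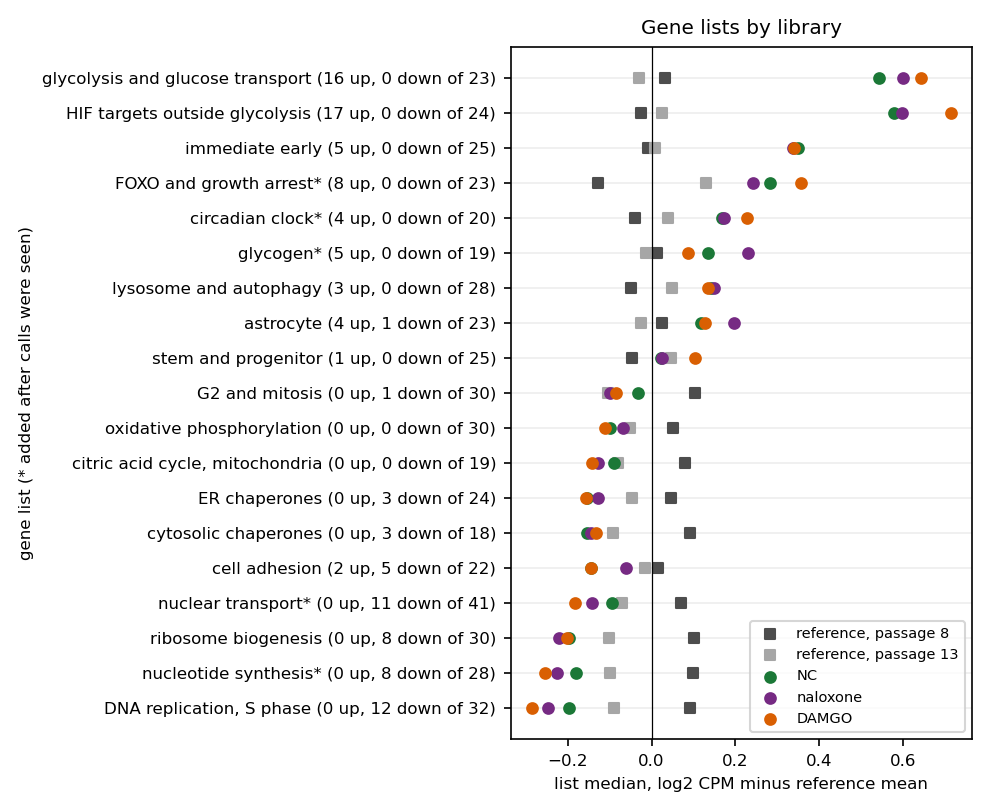
Median over each gene list of log2 CPM minus the mean of the 2 references (horizontal) in each library, with squares for references and circles for drug-experiment libraries, and the called members in the row labels. The HIF and glycolysis rows stand apart at 0.544 to 0.715 in the 3 drug-experiment libraries, while in the rows from mitosis to S phase the passage 13 reference lies on the same side of the line as the circles.

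Insulin-like growth factor binding proteins, which are secreted and control the access of insulin-like growth factors to their receptor, moved in both directions. Igfbp5 stood at 28.3 and 23.0 CPM in the references and at 64.1, 66.8 and 93.1 CPM in NC, naloxone and DAMGO, a log2 difference of 1.55 ± 0.15. Igfbp4 stood at 138 and 94.5 CPM in the references and at 46.4, 52.7 and 52.0 CPM in the others, a log2 difference of -1.19 ± 0.13. Igfbp3, a further binding protein, was at 724 and 740 CPM against 592, 671 and 591 CPM. The sides did not overlap for any of these 3, as for nearly every gene called. The list they come from also holds chromatin and RNA-binding genes of fetal growth (Hmga1, Hmga2, Igf2bp2 and Igf2bp3). Of its 9 measured genes 1 was higher and 2 lower, beside 3.44% of all genes called higher and 2.92% lower. Among growth factor receptors Fgfr3 stood at 101 and 114 CPM in the references and at 191, 182 and 190 CPM in the others, while Egfr stood at 505 and 614 CPM against 608 to 635 CPM and did not pass (edgeR, adjusted p = 0.24). Fgf1 was lower, with a log2 difference of -0.49 ± 0.08.

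Beside Igfbp4, the largest falls among genes averaging at least 5 CPM began with Wnt4 and Rarb. Wnt4, a Wnt ligand, stood at 9.65 and 12.5 CPM in the references and at 3.66, 3.64 and 4.42 CPM in NC, naloxone and DAMGO, a log2 difference of -1.51 ± 0.22. Rarb, a retinoic acid receptor, went from 12.9 and 9.39 CPM to 4.27, 3.64 and 4.24 CPM. Palmd, Cemip (which degrades hyaluronan), the cadherin gene Cdh19 and Mylk (myosin light chain kinase) had log2 differences of -1.35 to -1.09. Npnt, an integrin ligand of the matrix, stood at 63.1 and 52.4 CPM in the references and at 30.5, 32.4 and 27.4 CPM in the others, and Cd93 at 58.6 and 138 CPM against 50.4 to 54.1 CPM. The references differ widely for Cd93. Sema5a, Rflna, Olfml2b, Tmem158, Itga8 and Gpd1, with Igfbp4, complete the 15 largest falls, with log2 differences of -1.03 to -0.78 for those 6. Cemip, Cdh19, Mylk, Sema5a, Itga8 and Cd93 each missed the threshold without at least 1 single library, Cd93 among others without the passage 13 reference, and on log2(TPM + 1) the difference of Itga8 turned to 0.06.

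Adhesion and axon guidance lists held calls in both directions, beside 3.44% of all genes called higher and 2.92% lower. Of 22 measured integrins, cadherins and immunoglobulin-type adhesion genes 2 were higher and 5 lower. Itga6, the laminin-binding integrin of stem cells, stood at 238 and 274 CPM in the references and at 310 to 322 CPM in the others, and Itgb8 was also higher, while Cdh2 (N-cadherin), Cadm1 (an immunoglobulin-type adhesion molecule), Itga1, Itga8 and Itga9 were lower. Of 40 measured semaphorins, plexins, netrins, slits and receptors (added list) 8 were higher and 4 lower. Draxin, a secreted repellent of axons, stood at 11.4 and 19.7 CPM in the references and at 40.7, 37.5 and 41.9 CPM in NC, naloxone and DAMGO, and Plxnb3 at 11.1 and 24.2 CPM against 40.5, 45.1 and 42.9 CPM. For both the passage 13 reference was the higher of the references. In the fit over 14 libraries 3 guidance genes and 0 adhesion genes passed.

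Genes of glial and neuronal types changed in small numbers, beside 3.44% of all genes called higher and 2.92% lower. Of 23 measured astrocyte genes 4 were higher and 1 lower with a median of 0.16. Ndrg2 stood at 4.42 and 4.35 CPM in the references and at 9.15, 12.7 and 11.5 CPM in NC, naloxone and DAMGO, and Apoe, a lipid carrier, at 68.7 and 46.0 CPM against 88.2, 93.3 and 99.7 CPM. Aldoc and Fgfr3 were the other two, and Cpe was lower. Gfap stood at 0.491 and 0.408 CPM in the references and at 4.07, 0.694 and 2.30 CPM in the others, and did not pass (edgeR, adjusted p = 0.076). Of 12 oligodendrocyte precursor genes 2 were higher, Cspg4 and Rlbp1, and Cspg4 stood at 70.3 and 134 CPM in the references and at 170, 197 and 196 CPM in the others. Pdgfra stood at 36.1 and 15.4 CPM in the references and 21.7 to 26.7 CPM in the others, and these ranges overlap. Of 17 neuronal genes 1 was higher (Gad1) and 2 were lower, Dcx at 20.4 and 18.5 CPM against 11.2, 11.6 and 13.4 CPM, and Gap43, a growth cone protein, at 407 and 431 CPM against 297, 298 and 290 CPM. Fewer cells of a type and less RNA per cell cannot be told apart in these bulk libraries.

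Of 25 measured stem and progenitor genes 1 was higher, a share near the 3.44% of all genes. It was Vim, at 2761 and 2701 CPM against 2988 to 3046 CPM, and the median was 0.04. Sox2 stood at 299 and 363 CPM in the references and 319 to 352 CPM in the others, and Olig2 at 748 and 839 CPM against 800 to 815 CPM. The drug-experiment libraries thus lay between the references for both factors. Oprm1 and Oprk1 had 0 counts in all 5 libraries, where 3 counts would be 0.408 to 0.61 CPM, and Oprl1 stood at 1.63 to 2.03 CPM. Of 26 antioxidant and metal genes 4 were higher and 4 lower, beside 3.44% and 2.92% of all genes. The ferritin heavy chain gene Fth1 was lower at 438 and 421 CPM against 315 to 353 CPM, the light chain gene Ftl1 higher at 774 and 843 CPM against 894 to 979 CPM, and the metallothionein gene Mt2 went from 6.38 and 6.26 CPM to 10.8, 12.8 and 16.1 CPM. Of 28 lysosome and autophagy genes 3 were higher, beside 3.44% of all genes, Ctsa, Gaa and Npc2, with a median of 0.14.

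The stages of differentiation place these levels, here as CPM on a scaling shared by all 14 libraries and without a test, because the stages share the undifferentiated libraries. Of the 17 called HIF targets outside glycolysis, 11 were higher in all 3 drug-experiment undifferentiated libraries than in each of the 11 other libraries. Slc16a3, the exporter of lactate, is counted with the genes of glucose use and not among the 17. It stood at 16.4, 17.2 and 27.3 CPM in NC, naloxone and DAMGO and at 1.17 CPM or less in all others. Vegfa stood at 123, 131 and 163 CPM and at 49.8 CPM or less in all others, with a mean of 8.90 ± 0.90 CPM at day 8 (SD, n = 3). Ero1l likewise had its highest other level in a reference, at 65.6 CPM. Both genes were lower at every later day than in the references.

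Some of the other genes lay between the references and the differentiating cells. Igfbp5 averaged 165 ± 4.76 CPM at day 2, 603 ± 28.02 at day 4 and 5217 ± 384 at day 8 (SD, n = 3), and Ndrg2 averaged 921 ± 104 CPM at day 2. Igfbp4 averaged 14.97 ± 3.71 CPM at day 2 and 7.81 ± 2.10 at day 8, below the drug-experiment libraries, which were below the references. Ndrg1 averaged 0.297 ± 0.131 CPM at day 2 and 111 ± 2.37 at day 8, so that it stood below the references at day 2 and above the drug-experiment libraries at day 8. Of the 12 S phase genes that were lower, 0 lay below all 11 other libraries, since at day 2 Mcm2 averaged 38.7 CPM. All 5 immediate early genes that were higher stood above each of the 11 other libraries, again with no share over all genes computed. Arc averaged 0.4 to 0.491 CPM at the later days.

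**Figure D5:**
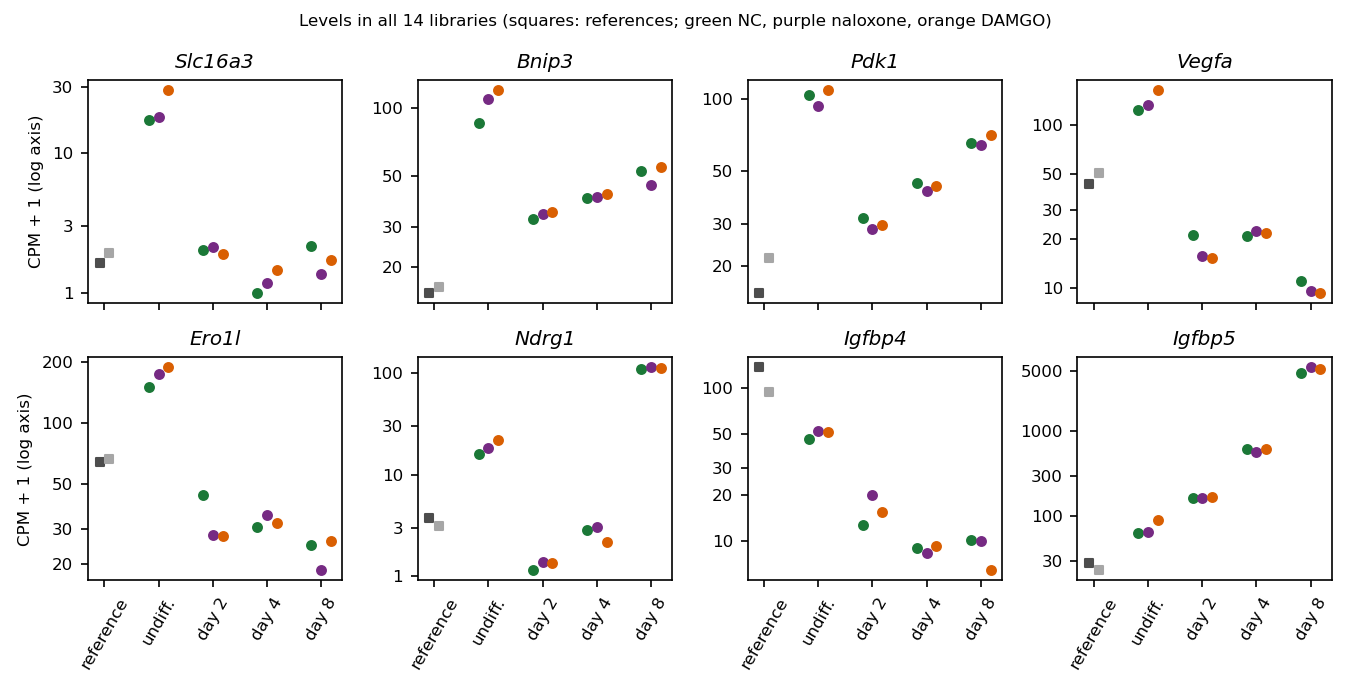
CPM + 1 (log axes) of 8 genes in all 14 libraries, with squares for the references at passages 8 and 13 and circles for NC, naloxone and DAMGO at each stage. Slc16a3, Vegfa and Ero1l peak in the 3 undifferentiated drug-experiment libraries, whereas Igfbp5 rises on through day 8 and Igfbp4 is lower at each stage than in the references.

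Of the 135 genes named under the selection rule that passed the test, 15 kept their direction and stayed past the threshold under all 16 alternatives computed. These are Slc16a3, Slc2a1, Slc2a3, Pfkl and Pdk1 of glucose use, Bnip3, Egln3, Ero1l, Ndrg1 and Vegfa of the HIF targets outside glycolysis, and Pgm1, Selenbp1, Fgfr3, Igfbp5 and Igfbp4. Selenbp1, a selenium-binding protein, stood at 3.60 and 6.26 CPM in the references and at 15.7, 16.7 and 19.4 CPM in NC, naloxone and DAMGO. Cav1, a coat protein of membrane pits, went from 3.93 and 2.04 CPM to 6.71, 9.71 and 10.6 CPM and is not among the 15, since without the DAMGO library it did not pass. Igfbp4 is the 1 of the 15 that was lower. Across the alternatives its log2 difference ran from -1.45 to -0.91, and that of Ndrg1 from 2.52 to 3.05.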

How the data were processed

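Of the 14 RNA-seq libraries, prepared with a TruSeq kit per the labels, 5 enter the tests. Reads were handled by Bowtie and RSEM on mm10, per the submitters' processing notes, with versions not given in the sources used here. Per gene, the deposited expected counts are RSEM estimates, rounded here, and the deposited TPM served as an alternative. RSEM divides reads among related genes, so values of families with near-identical copies (such as Eno1, Gapdh and Rps2) are uncertain. Tests used edgeR 4.0.16 (R 4.3.3) with TMM scaling, filterByExpr, 3 residual degrees of freedom and a threshold of 0.05. Alternatives used DESeq2 1.42.0, limma 3.58.1 and mgcv 1.9.3, and code was tested on simulated data. Named genes are the 15 largest changes each way without overlap and with a mean of at least 5 CPM, up to 4 called members per list and a fixed set of marker genes. Further members are given where a list is described. The members and 47 lists were chosen with earlier results of these data known, and 8 more lists (glycogen, clock, FOXO, nucleotide synthesis, nuclear transport, JmjC, guidance and HIF machinery) after the calls were seen. They were described by counts and medians. Counting floors use 3 counts and cover counting error only.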

Additional observations from a re-analysis of the deposited data

How the results depend on the processing

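The counts of genes higher in the drug-experiment cultures and genes lower in the drug-experiment cultures, 424 and 359, were 208 and 172 with DESeq2, 56 and 10 with limma on log2(TPM + 1), 47 and 6 on log2(TPM + 0.1), 59 and 22 over all 14 libraries, 979 and 1054 with the passage 8 reference only, 90 and 58 with NC only, and 681 and 697 with no filter on low counts. With the GC and length trend removed 584 were lower. The fit with the passage 8 reference only is the same as the fit that leaves out passage 13. Leaving out each library in turn gave 136 to 979 higher and 79 to 1054 lower, and the lowest came without the DAMGO library and the highest without passage 13. Chosen after seeing the data, the passage 8 reference against naloxone and DAMGO gave 1020 and 1089, and a change of at least 1.5-fold 145 and 52. Limma-voom and DESeq2 size factors stayed within 1.5 times. Of the genes shared with the reported ones, DESeq2 kept 206 and 169, and the 14-library fit 59 and 22. Directions reversed for the Itga8 log2 difference (0.05777 and 0.03976) and the Per2 log2 difference (-0.2707 and -0.2941) on log2(TPM + 1) and log2(TPM + 0.1), for the Pdgfra log2 difference without the passage 8 reference (0.6823, against -0.5477 without passage 13), and for the Sox2 log2 difference with the passage 8 reference against naloxone and DAMGO (0.1709). The cause was not tested. Of 144 named genes tested 135 had passed, and 57 to 74 of those missed the threshold without 1 of the drug-experiment libraries. No paired analysis was possible because replicate numbers within a side only name different conditions. At 3 counts per library, genes under 0.408 to 0.61 CPM could not be compared.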
